A study of Homo sapiens with 9 samples.

Results

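Complement is a cascade of serum and membrane proteins that marks cells and microbes and can lyse them. In the classical pathway the proteases C1r and C1s act in turn, and C1s cleaves C4. In the alternative pathway factor B supplies the protease, and both routes end in the cleavage of C3, the protein at the centre of the cascade. Cells carry CD46, CD55 and CD59 on their surface to stop complement from acting on themselves, and epithelial cells, those of the lung included, make some of the components locally, besides the liver.

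The genes described here are 9 genes of this system in H1975 cells, a human lung adenocarcinoma line, of 61544 genes counted: the components C3, C4A, C4B, C1R, C1S and CFB, and the membrane regulators CD46, CD55 and CD59. They were chosen by symbol, on the basis of the difference in C3, C4A and C4B between the WT and NLS Mut groups. The values of that comparison are therefore given for the 9 genes as a description, with no test. The tests of these genes against vector use the same WT and NLS Mut libraries. Their p-values are therefore not independent of the choice of the genes, above all for C3, C4A, C4B and the sum of C4A and C4B. Of the 9 genes, 8 passed the filter on low counts, which kept 18653 genes in all, and CFB did not.

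GRP78, encoded by HSPA5, is a chaperone of the endoplasmic reticulum (ER), and the RNA-Seq experiment asked what it does to transcription when it can or cannot enter the nucleus. All 9 libraries came from cells that were first treated for 24 h with si78, an siRNA that depletes endogenous GRP78, and then transfected for 48 h with a plasmid. The plasmid was the empty vector, FLAG-tagged GRP78, F-78(WT), or the same protein with alanine in place of lysines of its nuclear localization signal, F-78(NLS Mut). The groups are called vector, WT and NLS Mut, with 3 libraries each, and WT and NLS Mut together are the F-78 groups. Cells without si78 were not analysed here, and transient transfection does not reach every cell. Nothing in the labels says that the 3 libraries of a group came from separate cultures, so the p-values measure the spread between these libraries only.

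Each library had 17671055 to 27476298 reads counted on genes. As a check of the vector and F-78 labels, HSPA5 had a mean of 378 CPM (TMM-scaled counts relative to the library's total) with vector, 5664 with WT and 4961 with NLS Mut, where plasmid and endogenous transcripts are counted as 1. Both plasmids raise HSPA5, so this cannot tell WT from NLS Mut libraries. HSPA5 was 0.19 higher on the log2 scale with WT than with NLS Mut (adjusted p = 0.079, edgeR), and was called in 6 of 10 other settings with all libraries. The part of this difference in other genes was not tested. Vector replicate 1 differed from the other vector libraries, with a chi-square per degree of freedom of 11.31 and 12.59 against them beside 4.42 between replicates 2 and 3. The WT libraries differed from each other by 7.03 to 10.05. In the slope of the log2 ratio to the average library on GC content, vector replicate 1 (-0.05 per 10 percentage points) lay among the F-78 libraries (-0.08 to 0.03). Vector replicates 2 and 3, at 0.11 and 0.12, lay apart from these, and only they remain when vector replicate 1 is left out. Without it the genes called against vector numbered 1256 in place of 104 with WT and 1002 in place of 148 with NLS Mut. Results of the 9 genes and the C4 sum against vector are therefore given also without it where it changes them. The 6 epithelial markers summed to 4448 to 5107 CPM with vector, 4771 to 4846 with WT and 4357 to 4557 with NLS Mut. CDH1 was lower with NLS Mut than with vector (log2 fold change -0.25, adjusted p = 0.044 by the quasi-likelihood test of edgeR), and CDH1 and KRT19 were higher with WT than with NLS Mut (0.27 and 0.23, adjusted p = 0.036 and 0.044, same test), calls that were each lost without any 1 NLS Mut library and others. Between WT and NLS Mut 4 of the 6 markers were higher with WT and 2 lower (EPCAM at -0.003 and KRT7 at -0.03). The 2 calls stand beside 0.504% of all tested genes called. With NLS Mut against vector all 6 were lower and 1 was called, beside 0.793% of all tested genes. The part of these differences in C3 and the C4 genes, which also had higher means with WT than with NLS Mut, was not tested. The 5 hepatocyte markers summed to at most 1.01 CPM, and ALB was at a mean of 0.282 CPM. The 5 macrophage and leukocyte markers summed to 27.98 to 29.2 CPM with vector, 22.3 to 25.3 with WT and 19.9 to 25.7 with NLS Mut, of which CSF1R at a mean of 17.6 CPM and CD14 at 7.78 made up most, with PTPRC at 0.059 and CD68 and LYZ listed at 0. The 4 endothelial markers summed to 5.87 to 7.33 CPM with vector, 7.43 to 8.82 with WT and 6.001 to 7.82 with NLS Mut.

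C4A and C4B are neighbouring copies on chromosome 6 and encode the isotypes of C4, the component that C1s cleaves. C4A lies at chr6:31982057-32002681 and C4B at chr6:32014795-32035418, both on the plus strand (GRCh38.p14). The transcript of C4A aligned to that of C4B over 5427 bases, with 13 mismatches and an identity of 99.76%, and the longest stretch without a mismatch ran for 2769 bases. All 13 mismatches were in coding sequence, in exons 21 to 29. The following 90 bases are shown because they hold 5 of the 13 mismatches, in the coding stretch that tells the isotypes apart, and so can decide to which gene a read is assigned. They are spliced from exons 26 and 27 (C4A chr6:31996047-31996231, C4B chr6:32028785-32028969, plus strand), with the differing bases in capitals.
C4A: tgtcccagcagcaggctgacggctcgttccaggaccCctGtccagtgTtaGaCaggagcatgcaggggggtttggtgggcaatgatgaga
C4B: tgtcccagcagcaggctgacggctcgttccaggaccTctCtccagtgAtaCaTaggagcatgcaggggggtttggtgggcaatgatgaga
Reads within the aligned stretch that cover none of the 13 mismatches cannot be placed on 1 gene, and the aligner's count holds uniquely placed reads only. The transcripts compared had 5460 bases (C4A) and 5427 (C4B), while the genes have 7191 and 7174 exonic bases. Exonic bases outside the alignment were not compared. The levels of C4A and C4B are therefore counts of part of the C4 reads, and their sum is given beside them throughout.

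C3 was the most abundant of the 9 genes, and its level differed between the plasmids. C3 (chr19:6677704-6720650, minus strand) was at 608, 580.4 and 580.5 CPM in the vector libraries, at 662, 652 and 664 CPM with WT, and at 502, 459 and 454 CPM with NLS Mut. The 3 groups did not overlap, with WT highest and NLS Mut lowest. The group means were 590 ± 15.8 CPM for vector, 659 ± 6.44 for WT and 472 ± 26.4 for NLS Mut (SD, n = 3 each). Per kilobase of exonic sequence C3 had 68.9 CPM over all libraries, against a median of 3.44 over 18187 genes, and ranked 429 among them.

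C3 fell with NLS Mut against vector, by 0.32 on the log2 scale (standard error, SE, 0.05; adjusted p = 7.3e-04, quasi-likelihood test in edgeR), or 0.80-fold. It passed the threshold in this comparison under all alternatives run and without any 1 library (log2 fold change -0.37 to -0.29), and was -0.31 without vector replicate 1 (adjusted p = 5.0e-05, edgeR). With WT against vector the log2 fold change was 0.16 (SE 0.05, 95% interval 0.06 to 0.26) and missed the threshold (adjusted p = 0.161, edgeR), though the 3 WT libraries all lay above the 3 vector libraries. That comparison passed with DESeq2 (0.17, adjusted p = 0.031), with GC content and length corrected for (0.19, adjusted p = 0.018, edgeR) and without vector replicate 1 (0.18, adjusted p = 0.011, edgeR). Between WT and NLS Mut, the comparison that brought up the gene, C3 was 0.48 higher on the log2 scale (SE 0.05), or 1.40-fold.

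**Figure D1:**
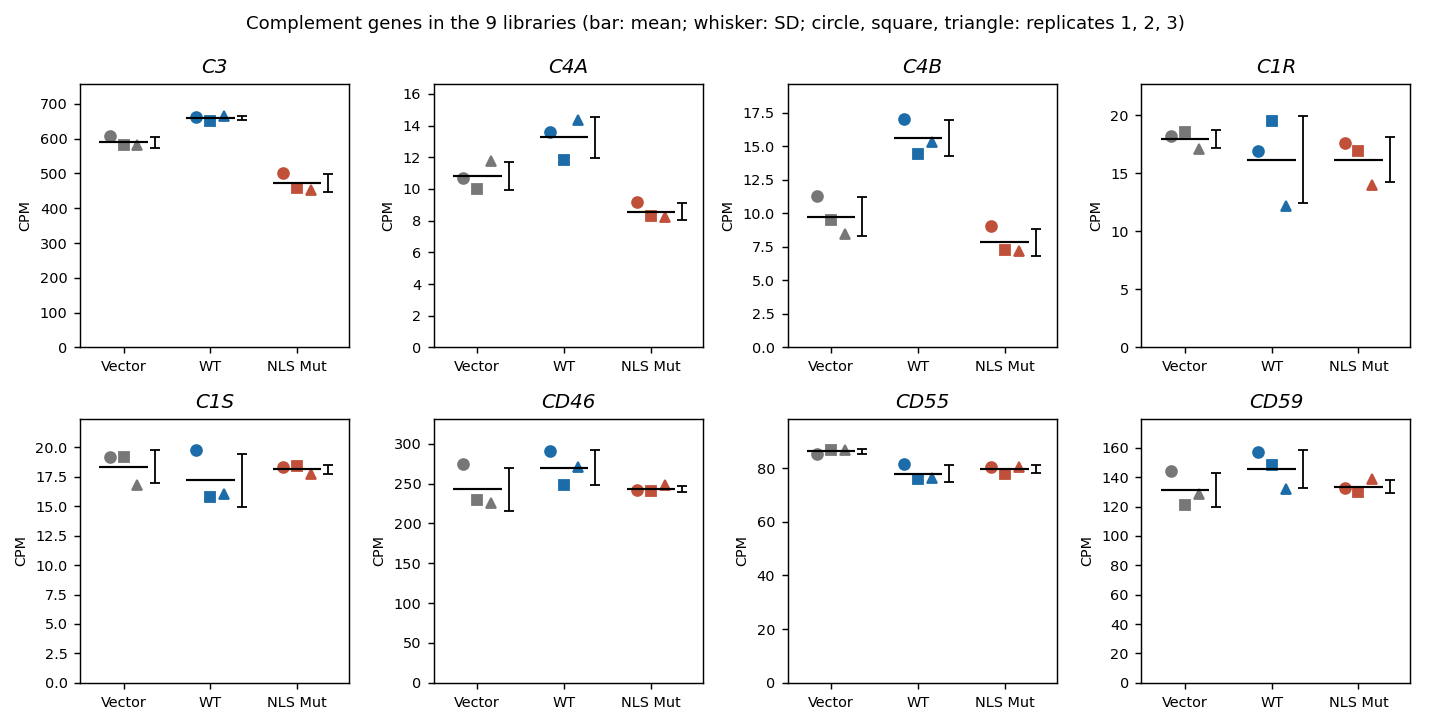
Level of each of 8 complement genes in CPM (y axis, from 0, a scale of its own for each gene) in the vector, WT and NLS Mut libraries (x axis). Points are libraries, lines are group means and whiskers are SD. The means of C3, C4A and C4B are highest with WT and lowest with NLS Mut, with vector and NLS Mut libraries overlapping in C4B, while all groups of C1R, C1S and CD59 overlap.

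The C4 genes stood at a far lower count than C3 and their group means stood in the same order. C4A and C4B summed had 22.0, 19.5 and 20.2 CPM in the vector libraries, 30.7, 26.2 and 29.6 CPM with WT, and 18.2, 15.6 and 15.4 CPM with NLS Mut. Every WT library lay above every vector library, and every NLS Mut library below. The summed means were 20.6 ± 1.28, 28.8 ± 2.32 and 16.4 ± 1.56 CPM (SD, n = 3 each). The sum rose with WT against vector by 0.49 on the log2 scale (SE 0.11, adjusted p = 0.036 in edgeR), which is 1.40-fold. That call was lost when only both compared groups entered the fit (0.49, adjusted p = 0.089, edgeR), without vector replicate 2 or 3, WT replicate 1 or 3, or any of the NLS Mut libraries (adjusted p = 0.052 to 0.238, edgeR). Without vector replicate 1 it was 0.54 (adjusted p = 0.0048, edgeR). The sum passed in 9 of 10 other settings with all libraries. Among these were DESeq2 (0.49, adjusted p = 0.0070) and GC and length correction (0.56, adjusted p = 0.0059, edgeR). With NLS Mut against vector the log2 fold change of the sum was -0.33 (SE 0.11, 95% interval -0.56 to -0.09) and missed the threshold (adjusted p = 0.202, edgeR). Between WT and NLS Mut the sum was higher by 0.81 on the log2 scale (SE 0.11), or 1.76-fold.

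C4A alone had 10.7, 9.99 and 11.8 CPM in the vector libraries, 13.6, 11.8 and 14.3 CPM with WT, and 9.18, 8.28 and 8.23 CPM with NLS Mut. The WT libraries were highest and the NLS Mut libraries lowest, with WT replicate 2 just above vector replicate 3. The log2 fold change was 0.29 with WT against vector (SE 0.14, adjusted p = 0.423, edgeR), -0.34 with NLS Mut against vector (SE 0.15, adjusted p = 0.333, edgeR) and 0.63 between the F-78 groups (SE 0.14). C4B alone had 11.3, 9.52 and 8.44 CPM with vector, 17.0, 14.4 and 15.3 CPM with WT, and 9.02, 7.30 and 7.20 CPM with NLS Mut. Here the WT libraries stood clear of the other 6, and the vector and NLS Mut libraries overlapped. C4B rose with WT against vector by 0.68 on the log2 scale (SE 0.15, adjusted p = 0.028, edgeR), or 1.60-fold, a call that was lost without vector replicate 2 or 3 or WT replicate 1 or 3 (adjusted p = 0.105 to 0.251, edgeR) and with only the groups compared in the fit (0.065, edgeR). Without vector replicate 1 it was 0.79 (adjusted p = 0.0017, edgeR). C4B passed in 9 of 10 other settings with all libraries. Its log2 fold change was -0.31 with NLS Mut against vector (SE 0.15, adjusted p = 0.418, edgeR) and 0.99 between the F-78 groups (SE 0.15).

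The share of the C4 reads that was assigned to C4A sat near an even split. C4A took 48.5%, 51.2% and 58.2% of the reads on both genes in the vector libraries, 44.4%, 45.1% and 48.3% with WT, and 50.4%, 53.1% and 53.3% with NLS Mut. The WT libraries had the lowest shares and did not overlap with the others. These shares rested on 272 to 681 reads in a library, and the 95% exact binomial interval (Clopper-Pearson) of WT replicate 1, from 40.6% to 48.2%, overlapped that of vector replicate 1, from 44.0% to 53.1%. The mean share was 52.7% ± 5.02 with vector and 45.9% ± 2.08 with WT (SD, n = 3), a difference with p = 0.1 in a two-sided exact permutation test, which is the smallest p that 3 against 3 libraries allow. With NLS Mut it was 52.3% ± 1.62 (SD, n = 3), with p = 0.9 against vector in the same exact test. The intervals cover counting error only.

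**Figure D2:**
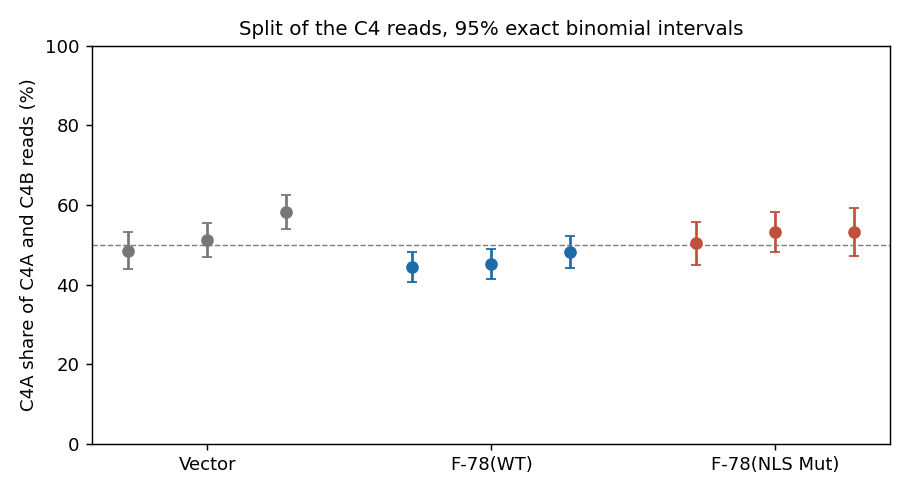
Share of the reads on C4A and C4B that was assigned to C4A, in percent (y axis, 0 to 100), for the 3 libraries of each group (x axis). Whiskers are 95% exact binomial intervals and the dashed line marks 50%. The WT libraries lie below 50% and vector replicate 3 is the highest at 58.2%.

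C1R and C1S, the genes of the proteases C1r and C1s, of which C1s cleaves C4, did not pass the test in any comparison with vector. They lie close to each other on chromosome 12, C1S at chr12:7060718-7071032 on the plus strand and C1R at chr12:7080219-7092445 on the minus strand. C1R had 18.2, 18.6 and 17.1 CPM with vector, 16.9, 19.5 and 12.1 CPM with WT, and 17.6, 16.9 and 14.01 CPM with NLS Mut. C1S had 19.2, 19.1 and 16.8 CPM with vector, 19.8, 15.8 and 16.0 CPM with WT, and 18.3, 18.4 and 17.7 CPM with NLS Mut. All 3 groups overlapped in both genes, and the lowest C1R value was that of WT replicate 3. Against vector, the log2 fold change of C1R was -0.15 with WT (95% interval -0.44 to 0.14, adjusted p = 0.753, edgeR) and -0.15 with NLS Mut (95% interval -0.44 to 0.14, adjusted p = 0.734, edgeR). That of C1S was -0.10 with WT (95% interval -0.34 to 0.15, adjusted p = 0.836, edgeR) and -0.02 with NLS Mut (95% interval -0.26 to 0.23, adjusted p = 0.976, edgeR). An increase of C1R or C1S as large as that of the C4 sum with WT lay outside these intervals. Between the F-78 groups the differences were 0.00 for C1R and -0.08 for C1S on the log2 scale (SE 0.14 and 0.12). Per kilobase, C1R had 2.85 CPM and C1S 2.77 CPM, beside 3.05 CPM for the C4 sum, which misses reads shared by the C4 copies.

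CFB, the gene of complement factor B in the alternative pathway (chr6:31946095-31952084, plus strand), was listed at 0 reads in all 9 libraries. Of its exonic bases 45.0% are shared with ENSG00000244255, a protein-coding gene on the same strand that was also listed at 0 in all libraries, and a read on more than 1 gene is not counted on either. IRF9 and CD68 were likewise listed at 0 in every library. The part of the shared annotation in the value of CFB was not tested, and no level or change of CFB is given.

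Among the membrane regulators none passed the test against vector in the model of all 9 libraries. CD46, the cofactor for the cleavage of C3b and C4b (chr1:207752038-207795516, plus strand), had 274, 229 and 226 CPM with vector, 291, 248 and 271 CPM with WT, and 242, 241 and 248 CPM with NLS Mut. Vector replicate 1 lay within the WT range and the other vector libraries below it. The log2 fold change against vector was 0.15 with WT (95% interval 0.01 to 0.29, adjusted p = 0.367, edgeR) and 0.00 with NLS Mut (95% interval -0.14 to 0.14, adjusted p = 0.993, edgeR). Without vector replicate 1 the first of these was 0.24 and passed the threshold (adjusted p = 0.0052, edgeR). The GC content of CD46 is 37.8%, and the counts of GC-rich genes relative to other genes were not alike in all libraries. The slope of the log2 ratio to the average library was -0.05 per 10 percentage points of GC in vector replicate 1, 0.11 and 0.12 in vector replicates 2 and 3, and -0.08 to 0.03 in the other 6. With GC content and length corrected for, CD46 stood at 0.07 with WT (log2 fold change against vector, adjusted p = 0.638, edgeR) and at -0.10 with NLS Mut (adjusted p = 0.370, edgeR).

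CD55, which speeds the decay of the C3 convertases (chr1:207321678-207360966, plus strand), had 85.2, 86.7 and 86.8 CPM with vector, 81.5, 75.8 and 76.4 CPM with WT, and 80.3, 77.9 and 80.4 CPM with NLS Mut. The 3 vector libraries were the highest, above all 6 F-78 libraries, which overlapped among themselves. The difference was small: the log2 fold change against vector was -0.15 with WT (95% interval -0.29 to -0.01, adjusted p = 0.385, edgeR) and -0.12 with NLS Mut (95% interval -0.26 to 0.02, adjusted p = 0.510, edgeR). With GC content and length corrected for, CD55 stood at -0.20 with WT against vector (adjusted p = 0.092, edgeR). With NLS Mut against vector the other settings with all libraries gave -0.18 to -0.12, with 0 calls. CD59, which blocks the membrane attack complex (chr11:33703010-33736479, minus strand), had 144, 121 and 129 CPM with vector, 157, 148 and 132 CPM with WT, and 132, 129.7 and 139 CPM with NLS Mut. All 3 groups overlapped. Against vector the log2 fold change of CD59 was 0.15 with WT (95% interval 0.01 to 0.30, adjusted p = 0.406, edgeR) and 0.03 with NLS Mut (95% interval -0.12 to 0.17, adjusted p = 0.930, edgeR), and the first passed without vector replicate 1 (0.22, adjusted p = 0.035, edgeR). Between WT and NLS Mut the log2 differences of the regulators were 0.15 for CD46, -0.03 for CD55 and 0.12 for CD59 (SE 0.07 each).

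The order of the 9 genes by level per kilobase was C3 at 68.9 CPM, CD46 at 28.95, CD55 at 13.7, CD59 at 13.2, C1R at 2.85, C1S at 2.77, C4B at 1.54, C4A at 1.51 and CFB listed at 0. CD55 and CD59, C1R and C1S, and C4B and C4A were neighbours that each changed places between groups (for CD55 and CD59, 14.6 and 12.7 with vector but 13.2 and 14.1 with WT), and the C4 levels leave out the reads shared by both copies. C3 and the 3 regulators lay above the median of 3.44 CPM per kilobase over all genes and the proteases below it, while C4 cannot be placed, since its uniquely placed reads alone gave 3.05 for the sum.

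**Figure D3:**
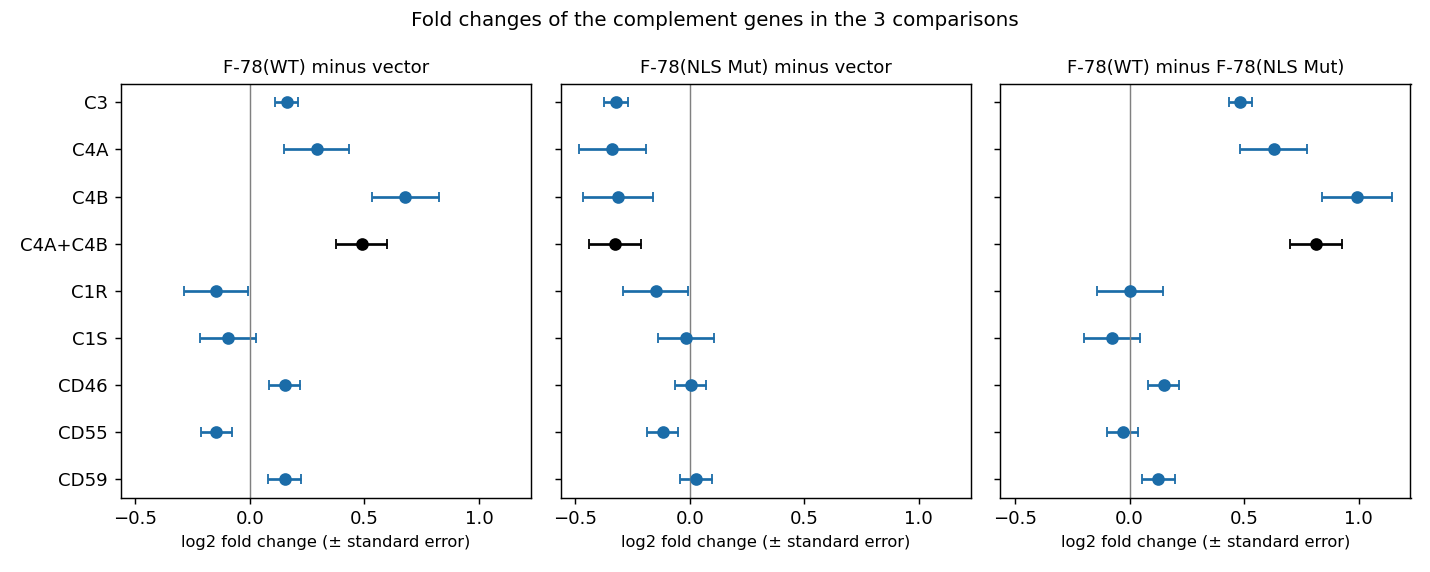
Log2 fold change (x axis) of each complement gene and of the C4 sum (black) in the 3 comparisons, with whiskers of 1 SE and a vertical line at 0. C3 and the C4 genes lie to the right of 0 with WT and to the left with NLS Mut against vector, while C1R, C1S and the regulators lie between -0.15 and 0.15.

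Counted over the 8 genes that could be tested, 1 rose (C4B) and 0 fell with WT against vector, where 0.558% of all tested genes were called in either direction. In that comparison the WT libraries lay entirely above vector in C3, C4A and C4B and entirely below in CD55, which makes 4 of 8 genes without overlap, beside 13.1% of all genes. With NLS Mut against vector 1 fell (C3) and 0 rose, beside 0.793% of all genes called, and 3 of 8 were without overlap, namely C3, C4A and CD55, all lower, beside 18.1% of all genes. The median log2 fold change of the 8 genes was 0.15 with WT and -0.13 with NLS Mut, beside 0.00 over all genes in both. Both comparisons share the vector libraries, and the F-78 libraries in them also made the comparison by which the genes were chosen. Between WT and NLS Mut 4 of 8 were without overlap (C3, C4A, C4B and CD46, all higher with WT, CD46 by 247.8 against 247.6 CPM at the nearest libraries), where 17.7% of all genes were without overlap and 0.504% were called. These figures follow from the choice of the genes.

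Of 50 further complement genes on 6 lists, 20 were listed at 0 reads in every library, 19 passed the count filter, and 11 had too few reads to be tested. Against vector 0 of the 19 were called with WT and 0 with NLS Mut, by edgeR and by DESeq2, with 3 at an unadjusted p under 0.05 in each comparison in edgeR, where 11.7% and 12.2% of all tested genes were. Between WT and NLS Mut 1 of the 19 was called, CLU, again by both tools, beside 0.504% of all tested genes called by edgeR. In that comparison 3 were at an unadjusted p under 0.05 in edgeR, beside 11.6% of all tested genes. The median log2 fold change of the 19 was 0.15 and -0.02 against vector and 0.35 between the F-78 groups, beside 0.00, 0.00 and -0.01 over all tested genes (-0.002, -0.002 and -0.005 before rounding).

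CLU encodes clusterin, a secreted chaperone that also inhibits the assembly of the membrane attack complex. It had 49.3, 53.0 and 48.3 CPM with vector, 53.6, 56.5 and 57.3 CPM with WT, and 40.8, 47.3 and 42.7 CPM with NLS Mut. The 3 groups did not overlap and stood in the same order as those of C3. CLU was higher with WT than with NLS Mut by 0.35 on the log2 scale (SE 0.08, adjusted p = 0.047, edgeR), and the call was lost without vector replicate 2 and without any single F-78 library (adjusted p = 0.052 to 0.239, edgeR). Against vector its log2 fold change was 0.15 with WT and -0.20 with NLS Mut (adjusted p = 0.489 and 0.298, edgeR).

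Other genes of the lists are given by their levels. In the classical and lectin pathways the most abundant genes tested were C1RL, a relative of C1R, at 0.846 CPM per kilobase, the protease gene MASP2 at 0.481 and the lectin gene COLEC11 at 0.432. MASP2 had 2.45, 2.21 and 2.15 CPM with vector, 2.49, 2.12 and 3.71 CPM with WT, and 0.472, 1.18 and 1.65 CPM with NLS Mut. The NLS Mut libraries were the lowest, and the log2 fold change of 1.33 between WT and NLS Mut missed the threshold (SE 0.39, adjusted p = 0.117, edgeR).

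For the alternative pathway CFD, the gene of factor D, had 3.82 CPM per kilobase and CFP, the gene of properdin, 0.074. For the terminal pathway only C5 was tested, at 1.89 CPM per kilobase, with overlapping groups of 8.54 to 13.9 CPM for vector, 9.74 to 16.0 for WT and 11.7 to 14.6 for NLS Mut. Among the soluble regulators CLU was at 7.54 CPM per kilobase, VTN at 0.727 and SERPING1, the gene of the C1 inhibitor, at 0.720.

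SUSD4, a membrane regulator not among the 9 genes, had 12.8, 11.3 and 13.4 CPM with vector, 16.2, 16.7 and 17.0 CPM with WT, and 11.9, 11.8 and 13.4 CPM with NLS Mut. Its WT libraries lay above the other 6, but the log2 fold changes of 0.41 against vector and 0.43 against NLS Mut missed the threshold (SE 0.13 each, adjusted p = 0.155 and 0.136, edgeR). THBD, the gene of thrombomodulin, was at 0.911 CPM per kilobase. Among the receptors C1QBP, whose product binds the globular heads of C1q, was at 121 CPM per kilobase, the integrin gene ITGB2 at 1.40 and C5AR1, the gene of the C5a receptor, at 1.29, and none of them was called.

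Complement genes are known to be induced by cytokines through STAT, NF-kB and C/EBP factors, so 33 genes of such inducers and factors were looked up. Of the 28 tested, 1 rose and 2 fell with WT against vector, beside 0.558% of all tested genes called in either direction. At an unadjusted p under 0.05 in edgeR were 13 of the 28 in that comparison, beside 11.7% of all tested genes. IL1R1, the receptor of interleukin 1, rose from 49.95 ± 1.57 to 65.5 ± 6.08 CPM (SD, n = 3; log2 fold change 0.39, SE 0.09, adjusted p = 0.034, edgeR). RELB, an NF-kB subunit, fell from 28.6 ± 2.93 to 19.3 ± 2.09 CPM (SD, n = 3; log2 fold change -0.56, SE 0.11, adjusted p = 0.016, edgeR). LIF, a cytokine of the interleukin 6 family, fell from 85.5 ± 8.001 to 69.0 ± 2.77 CPM (SD, n = 3; log2 fold change -0.31, SE 0.07, adjusted p = 0.049, edgeR). With NLS Mut against vector and between the F-78 groups 0 of the 28 were called by edgeR, with 4 and 8 at an unadjusted p under 0.05, beside 12.2% and 11.6% of all tested genes. The 3 calls against vector were lost with only the groups compared in the fit and without vector replicate 2 or 3 or WT replicate 1 or 3, those of IL1R1 and LIF also without NLS Mut replicate 1 or 3, and that of LIF also without NLS Mut replicate 2 and with the size factors of DESeq2 in edgeR (adjusted p = 0.054 to 0.341, edgeR). With 1 library left out, the adjusted p ranged from 0.0048 to 0.220 for IL1R1, 0.00078 to 0.184 for RELB and 0.00044 to 0.341 for LIF (edgeR). Of 18 acute phase proteins, which the liver makes together with C3, 5 were tested and 0 were called in each of the 3 comparisons by edgeR. At an unadjusted p under 0.05 were 0, 1 and 1 of them, beside 11.7%, 12.2% and 11.6% of all tested genes.

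Promoter sequences (300 bases that span the start of a gene, RefSeq, GRCh38.p14) were matched for 5 of the 9 genes, C1R, CFB, CD46, CD55 and CD59, with 10 promoters in all, and not for C3, C4A, C4B and C1S. The E-box, CANNTG, the site of the factors that the study's protein ID2 sequesters, was found on either strand in 7 of these 10 promoters, in C1R, CFB, CD46 and CD59, and in 68.7% of all 35116 promoters. GAS, TTCNNNGAA, the STAT site, was in 4 of the 10, from 3 of the 5 genes (C1R, CFB and CD59), and in 7.7% of all. The interferon-stimulated response element was in 1 of the 10 (CFB) and 3.6% of all. CCAAT was in 5 of the 10, from only 2 of the 5 genes (CD46 and CD59), and in 34.6% of all. The NF-kB motif was in 0 of the 10 and 5.9% of all. The promoters of CD46 overlap each other, as do those of CD59 in pairs, and a match of letters is a description of the window only.

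The genes whose levels moved most like those of C3 over the 9 libraries were COL1A2, HSPG2, AKR1C3, FBLN2 and ITGB4, with a Pearson correlation of the log2 CPM from 0.962 (ITGB4) to 0.982 (COL1A2) across 9 libraries. Of 11476 genes with at least 5 CPM compared with C3, 0.401% had a correlation over 0.9. COL1A2 had 177, 163 and 176 CPM with vector, 195, 192 and 203 CPM with WT, and 142, 126 and 136 CPM with NLS Mut, so that its groups stood in the same order as those of C3. The genes most like the C4 sum were COL12A1 at 0.987, ARRB1 at 0.967, LRP1 at 0.951, C3 at 0.948 and ACSS2 at 0.948, and 0.235% of 11475 genes were over 0.9. COL12A1 had 217, 202 and 195 CPM with vector, 243, 233 and 248 CPM with WT, and 189, 173 and 176 CPM with NLS Mut. The 9 points of each correlation fall into the 3 groups and share their libraries, so it is a description of the pattern and carries no test.

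**Figure D4:**
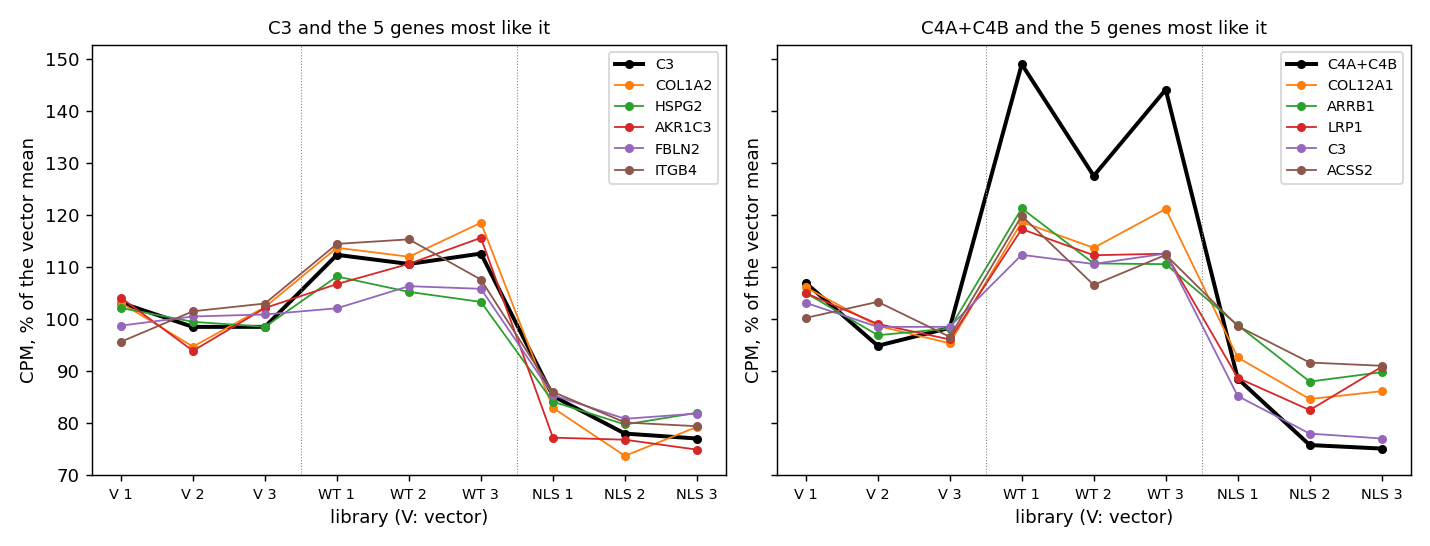
CPM of C3 (left) and of the C4 sum (right), in black, and of the 5 genes most like each, as percent of the gene's mean over the vector libraries (y axis, which starts at 70) in the 9 libraries (x axis; V, vector). In each panel the black line is above 100 in the WT libraries and below 100 in the NLS Mut libraries.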

How the data were processed

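For each of the 9 libraries the authors deposited a file of raw counts, the reads on each gene without normalization, in the layout of STAR. STAR 2.7.9a, DESeq2 1.36.0 and GRCh38.p14 are named in the submitters' processing notes, and the release of the annotation is not given in the sources used here. The column that ignores strand was used (the forward strand held 50.6% to 51.9%), so reads where a gene overlaps an antisense gene, as C4A does C4A-AS1, are ambiguous and not counted. The 4 summary lines of each library, 27.6% to 30.7% of its reads, were left out, and 9.12% to 9.81% of reads lay on more than 1 gene. Of the 61544 identifiers 61399 had a symbol and 58298 were in GENCODE release 29, which gave exonic length, GC content and transcripts, while RefSeq on GRCh38.p14 gave coordinates and promoters.

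The counts of all 9 libraries were filtered with filterByExpr, scaled by TMM (CPM) and fitted in edgeR 4.0.16 (R 4.3.3) with 1 coefficient per group. Genes were called at a Benjamini-Hochberg adjusted p under 0.05 over 18653 genes in the quasi-likelihood test. The standard error (SE) is the size of the log2 fold change over the square root of the test's F. For the C4 sum the C4A and C4B counts were replaced by their sum and all genes refitted. The median biological coefficient of variation was 11.2%. The procedure was tested on simulated data.

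The 9 genes, the lists (classical and lectin, alternative, terminal, soluble regulators, other membrane regulators, receptors, inducers, acute phase and the markers of 4 cell types) and the tests were chosen with earlier results of these data known. Named are the 9 genes, HSPA5, called genes of the lists, the 3 most abundant tested genes per complement list, cell type markers, and the 5 genes most correlated with C3 and the C4 sum (log2 CPM, prior count 2, at least 5 CPM). IRF9 was named after its values were seen. Replicate numbers showed little pairing of the libraries, and the main fit has no replicate term. Correlations of deviations from the group means were -0.024 to 0.059 for same-numbered libraries and -0.051 to 0.023 for others. Replicates differed beyond sampling noise (chi-square per degree of freedom 3.55 to 12.59). Alternatives were DESeq2 1.42.0, its size factors or library size alone in edgeR, other filters, both strands summed, only the groups compared, a replicate block, GC and length correction (loess, span 0.3), and leaving out each library.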

Additional observations from a re-analysis of the deposited data

How the results depend on the processing

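With 3 libraries per group, small differences depend on single libraries. The call of C3 with NLS Mut against vector held in every alternative run, and no fold change of a complement gene that had passed the test changed its sign. For WT against vector the 104 genes called became 248 with DESeq2, 289 with no filter, 26 with only the groups compared, 197 with the GC and length correction, and 19 to 1256 with 1 library left out. For NLS Mut against vector the 148 became 408 with DESeq2, 240 with no filter, 246 with the GC and length correction and 33 to 1002 with 1 library left out. For WT against NLS Mut the 94 became 288 with DESeq2, 225 with no filter, 149 with a minimum of 1 CPM, 315 with only the groups compared, 457 with the GC and length correction and 27 to 388 with 1 library left out. Of the counts with 1 library left out, the highest in each comparison was without vector replicate 1. With the replicate block these counts were 232, 230 and 212, and 235, 302 and 544 with the replicate block and the GC and length correction together. The cause of these shifts was not tested.

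Of the complement genes, 1 was called with WT against vector, 2 with DESeq2, 2 with the GC and length correction (also with the replicate block), 0 with only the groups compared and 0 to 4 with 1 library left out. The 4 were C3, C4B, CD46 and CD59, without vector replicate 1. The C4 sum with WT against vector was 0.49 on the log2 scale also with only the groups compared, where it missed the threshold (adjusted p = 0.089, edgeR), and 0.44 to 0.56 with 1 library left out. Between WT and NLS Mut 1 further complement gene was called, 2 with the replicate block and the GC and length correction (CLU and SUSD4), and 0 to 1 with 1 library left out.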
